A study of Mus musculus with 12 samples.

Results

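Oxidation of an acyl-CoA in mitochondria opens with an acyl-CoA dehydrogenase, and its electrons leave through the electron transfer flavoprotein. The transcripts of these enzymes were examined in the left ventricle of mice with and without deletion of Gch1 in cardiomyocytes. The set held 10 genes: Acadvl, Acadl, Acadm, Acads, Acadsb, Acad8, Acad9, Etfa, Etfb and Etfdh. They were the rows of the count table whose Ensembl identifier has 1 of these symbols in GENCODE mouse M21, and all 10 were found among 26921 genes. All 10 also passed the filter on low values that left 11225 genes for testing. The lowest count of any of them in any library was 1076.

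Each dehydrogenase removes a pair of hydrogens from the acyl chain and hands the electrons to its FAD. Electron transfer flavoprotein (ETF), a dimer of the Etfa and Etfb products, collects these electrons in the matrix. ETF-ubiquinone oxidoreductase, the product of Etfdh, passes them on to ubiquinone in the inner membrane. The heart draws much of its energy from fatty acids and expresses these enzymes strongly.

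Libraries came from ventricular RNA of 6 WT and 6 cmGch1 KO mice aged 16 weeks, each library from 1 animal. Gch1 encodes GTP cyclohydrolase 1, which catalyses the first step of tetrahydrobiopterin synthesis. The question was whether loss of this gene in cardiomyocytes is accompanied by altered gene expression in the heart. Every mouse of both groups carried floxed Gch1 alleles (Gch1 flox/flox), and the cmGch1 KO mice carried in addition 1 copy of Cre recombinase under the α-MHC promoter. This promoter is active in cardiomyocytes, so the alleles of other cells in the ventricle were not targeted. WT mice had no Cre, and no library from a mouse with Cre but without floxed alleles was analysed here, so the effect of Cre itself and that of the deletion cannot be told apart.

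Libraries held between 19921398 and 37917806 counts. Gch1 was at 10.7 ± 0.974 cpm (the count relative to the library size after TMM scaling; SD, n = 6) in WT and at 5.48 ± 0.855 cpm (n = 6) in cmGch1 KO, a log2 fold change of -0.96 (FDR = 0.000688 by edgeR's quasi-likelihood test) with no overlap of the groups. The labels give no sex, but cmGch1 KO replicates 2 and 3 had Xist at 86.7 and 99.1 cpm and a Y-linked sum of 0, whereas the other 10 libraries had Xist at no more than 0.234 cpm and a Y-linked sum of at least 167 cpm. In the same 2 libraries mitochondrially encoded genes held 14.9% and 16.1% of the counts, against 18.3% to 22.9% in the others. The fits of the 10 genes, the share of Acadl, the related lists and Bckdhb are therefore also given without them. The ratios, the correlations and the other genes named outside the set rest on all 12 libraries. The summed level of 8 ventricular cardiomyocyte markers lay between 62403 and 66048 cpm in WT and between 56311 and 60317 cpm in cmGch1 KO, and these ranges did not overlap. Of the 8, 7 had a lower and 1 a higher fitted level, and none passed an unadjusted p of 0.05 alone. Of 5 macrophage markers, 4 were higher in cmGch1 KO with an unadjusted edgeR p below 0.05, and their sum ranged from 92.9 to 110.5 cpm in WT and from 108.4 to 128.8 cpm in cmGch1 KO. Summed fibroblast markers ranged from 789 to 1055 cpm and from 891 to 1096 cpm, respectively, with 6 of 6 higher and 1 of these at an unadjusted p under 0.05. Endothelial markers summed to between 644 and 805 cpm and between 707 and 833 cpm. Pericyte and smooth muscle markers summed to between 847 and 951 cpm and between 867 and 1003 cpm, with 3 of 5 lower and 2 higher fitted and a median log2 fold change of -0.06. Of these, Acta2 passed an FDR of 0.05 (log2 fold change 0.66, FDR = 0.00672 by edgeR), while Tagln and Myh11 had -0.40 and -0.24 (FDR = 0.491 and 0.450). Atrial, erythroid, nerve and adipocyte markers had overlapping sums, and the 4 adipocyte markers all lay below the filter. All these sums rest on the TMM scaling and were not compared without it. Its factors ran from 0.949 to 0.992 in WT. In cmGch1 KO the factor was 0.970 in replicate 1 and between 1.008 and 1.085 in the others. A higher factor lowers every level of a library, so whether the cardiomyocyte sums stay apart without this scaling was not tested. In whole ventricle, fewer cardiomyocytes, less RNA per cardiomyocyte and an effect of the scaling cannot be told apart here.

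The 10 genes are scattered over the genome. In GENCODE M21 (GRCm38), Acadvl lies at chr11:70010183-70015411, Acadl at chr1:66830839-66863277, Acads at chr5:115110299-115119346 and Acad8 at chr9:26974135-26999566, all on the minus strand. Chromosome 3 carries Acadm at chr3:153922357-153944632 and Etfdh at chr3:79603788-79629500, both on the minus strand, and Acad9 at chr3:36065979-36092853 on the plus strand. The ETF subunits are unlinked, Etfa at chr9:55454508-55512243 on the minus strand and Etfb at chr7:43444083-43457800 on the plus strand. Acadsb shares chromosome 7 with Etfb, at chr7:131410601-131448944 on the plus strand. In Acadvl 42.9% of the exonic bases are also exonic in Dvl2 on the opposite strand, and in Etfb 53.0% in Gm45233 on the same strand. Dvl2 held 1.12% as many counts as Acadvl, and Gm45233 has no row in the count table. The strand setting of the counting was not given in the sources used here.

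The start regions of 4 genes are shown, chosen for the levels or products of these genes. Acads had the largest difference between genotypes, Acadm was the most counted member, and Etfa and Etfb encode the subunits of 1 dimer. Whether a motif bears on any level was not tested. Each run is the 250 bases before the RefSeq start, in the direction of the gene, from GRCm38.p6. The windows are chr5:115119347-115119596 (minus strand), chr3:153944644-153944893 (minus), chr9:55512244-55512493 (minus) and chr7:43443822-43444071 (plus). Capitals mark a GC box (GGGCGG on the other strand) in Acads, a nuclear receptor half-site (AGGTCA on the other strand) in Acadm, and CCAAT boxes on either strand in Etfa and Etfb.
Acads: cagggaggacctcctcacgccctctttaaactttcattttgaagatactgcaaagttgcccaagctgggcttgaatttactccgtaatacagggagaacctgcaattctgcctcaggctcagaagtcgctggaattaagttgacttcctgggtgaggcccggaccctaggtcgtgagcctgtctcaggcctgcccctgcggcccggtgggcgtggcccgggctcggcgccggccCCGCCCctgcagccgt
Acadm: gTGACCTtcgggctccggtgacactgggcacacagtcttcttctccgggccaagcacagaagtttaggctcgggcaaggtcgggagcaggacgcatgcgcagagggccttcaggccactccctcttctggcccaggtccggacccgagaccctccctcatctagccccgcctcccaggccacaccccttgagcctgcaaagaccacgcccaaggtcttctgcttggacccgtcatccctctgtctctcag
Etfa: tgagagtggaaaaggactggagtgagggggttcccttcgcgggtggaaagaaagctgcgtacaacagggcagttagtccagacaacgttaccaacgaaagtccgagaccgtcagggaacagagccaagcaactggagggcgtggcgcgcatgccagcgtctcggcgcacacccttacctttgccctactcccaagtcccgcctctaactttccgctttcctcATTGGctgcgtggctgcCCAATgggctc
Etfb: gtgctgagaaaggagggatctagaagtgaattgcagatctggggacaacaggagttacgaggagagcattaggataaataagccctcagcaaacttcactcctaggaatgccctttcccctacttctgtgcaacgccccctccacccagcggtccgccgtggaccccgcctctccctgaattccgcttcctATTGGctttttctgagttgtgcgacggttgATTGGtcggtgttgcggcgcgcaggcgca

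RefSeq start regions were at hand for 9 of the 10 genes, all but Acad9. In GENCODE M21 the Etfdh window lies within the annotated gene and overlaps an Etfdh exon, the Acad8 window overlaps exons of Acad8 and Thyn1, and the Acadsb window overlaps an exon of Ikzf5, so these 3 hold transcribed sequence. Etfa and Etfb each held 2 CCAAT boxes within their last 60 bases, at -28 to -24 and -11 to -7 in Etfa and at -59 to -55 and -29 to -25 in Etfb. A CCAAT box also lay in Acad8 and Etfdh, and 33.8% of 32851 RefSeq windows of this length held at least 1 on either strand. GC boxes were found in Acadl, Acads, Acadsb and Acad8, with 4 in Acadl, against 32.7% of all windows. The half-site AGGTCA lay in Acadvl at -87 to -82 and in Acadm at -249 to -244, against 14% of all windows. This half-site is part of both longer motifs searched, TCAAGGTCA, bound by the estrogen-related receptors (0.387% of all windows), and AGGTCA repeated after 1 free base, the direct repeat bound by PPAR with RXR (0.0335%), and neither was among the letters of any of the 9 windows. The palindrome of NRF1, GCGCA followed directly by TGCGC, was found in Etfdh, at -128 to -119, against 0.782% of all windows.

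The expression level of the 10 genes per length of exon spanned a wide range. Etfb stood first at 744 ± 131 cpm per kb of exon in WT (SD, n = 6) and 647 cpm per kb in cmGch1 KO. Acadl, which acts on long chains, followed at 541 ± 28.2 and 494 cpm per kb, respectively. Etfa at 366 ± 28.3 and 313, Acadm at 336 ± 16.2 and 290, and Acadvl at 249 ± 15.3 and 221 cpm per kb came next. These 5 genes lay at or above percentile 98.4 of the tested genes by WT level per kb, and Acads and Etfdh at percentiles 96.9 and 96.0. Acads was at 122 ± 15.7 and 97.5 cpm per kb, and Etfdh at 90.0 ± 3.01 and 79.1 cpm per kb. The 2 dehydrogenases of branched-chain amino acid breakdown were lower, Acadsb at 25.4 ± 1.56 and 22.8 cpm per kb and Acad8 at 13.8 ± 0.611 and 13.2 cpm per kb. Acad9, at 6.56 ± 0.335 and 6.25 cpm per kb, stood at percentile 57.8. Between neighbours in this order only Etfa and Acadm overlapped, with Etfa the higher in 8 of 12 libraries, whereas each of the other neighbours kept its place in 12 of 12. Exon lengths were those of all annotated transcripts joined, from 1164 bases in Etfb to 8192 in Acad9, so a level per kb is too low where a long annotated end is little used.

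**Figure D1:**
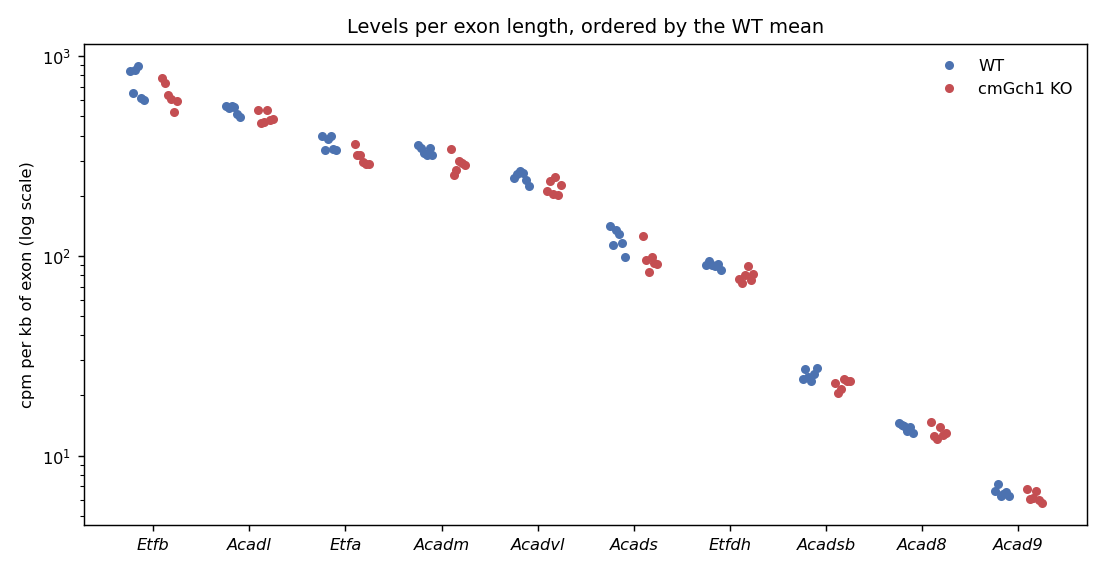
Levels of the 10 genes in cpm per kb of exon on a log axis, 1 point per library, WT in blue and cmGch1 KO in red, ordered by the WT mean. The levels run from 744 cpm per kb for Etfb to 6.56 for Acad9 in WT, and the order is that of the text.

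All 10 genes had a lower fitted level in cmGch1 KO than in WT hearts, with log2 fold changes from -0.07 for Acad8 and Acad9 to -0.32 for Acads and a median of -0.18. Over all tested genes, the median was -0.01 and 53.3% lay below 0. None of the 10 passed an FDR of 0.05 over all tested genes by edgeR's quasi-likelihood test, against 1.12% of all tested genes (0.445% lower and 0.677% higher). Before adjustment, 6 of the 10 were lower at p under 0.05 (Acadvl, Acadm, Acads, Acadsb, Etfa and Etfdh) and none higher, against 4.51% lower and 7.01% higher over all tested genes. DESeq2's Wald test called 1 of the 10, Etfdh, at an FDR under 0.05, against 3.32% of all tested genes. The groups overlapped in each of the 10, against 0.802% of tested genes that were lower and 1.07% that were higher with no overlap. The percent change of the mean ran from -4.81% for Acad9 to -20.1% for Acads. The 10 genes are no independent repeats of 1 measurement, since their levels moved together across libraries (described after the single genes).

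The size of the differences, and for 3 genes the direction, changed with the scaling, whereas all 10 were lower in each of 12 fits with a library left out. Without cmGch1 KO replicates 2 and 3 all 10 remained lower with a median log2 fold change of -0.15, and 2 of them, Etfa and Etfdh, passed an unadjusted p of 0.05 (2.79% of tested genes lower at that p in this fit). When libraries were scaled by their total counts alone, the median of all tested genes moved to 0.07 and that of the 10 to -0.10, with 1 lower at that p (2.11% over the whole fit). Scaling by the summed counts of the 8 cardiomyocyte markers moved the median of all tested genes to 0.12 and that of the 10 to -0.05. In that scaling none of the 10 was lower at that p (1.04% over the whole fit), and Acadl, Acad8 and Acad9 had log2 fold changes of 0.00, 0.06 and 0.06. The share of the lower cardiomyocyte marker sum in the lower level of the 10 genes was not tested beyond this scaling.

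**Figure D2:**
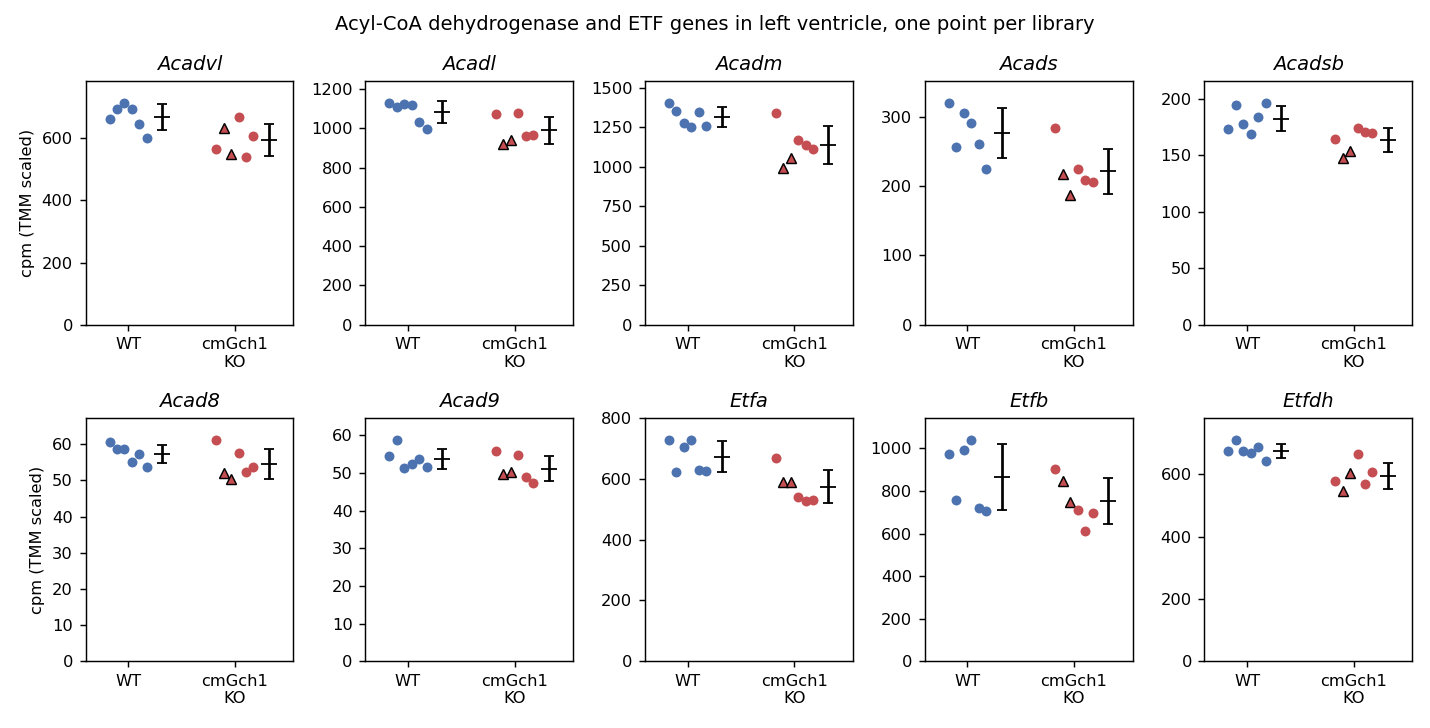
Level of each gene in cpm, scaled by TMM factors, in 6 WT (blue) and 6 cmGch1 KO (red) libraries, with the mean and SD beside each group. Triangles mark cmGch1 KO replicates 2 and 3. The mean is lower in cmGch1 KO for all 10 genes and the groups overlap in each.

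Among the dehydrogenases of straight chains, Acads stood furthest from 0. It encodes the short-chain enzyme, which acts on butyryl-CoA in the last rounds of beta-oxidation. Its level in WT had a lowest value of 224, a median of 277 and a highest value of 319.9 cpm, and in cmGch1 KO the values were 187, 213 and 284 cpm. Of the cmGch1 KO libraries, 4 lay below every WT library, while replicate 1 (284 cpm) lay above 3 WT libraries. The means were 277 ± 35.6 and 221 ± 33.2 cpm (SD, n = 6 each), with a log2 fold change of -0.32 (SE 0.11, edgeR p = 0.00893, FDR = 0.207, exact permutation p = 0.0281, two-sided). Without cmGch1 KO replicate 1 the log2 fold change of Acads was -0.41 with an FDR of 0.0382 by edgeR. This was the only one of 12 fits with a library left out in which any of the 10 genes passed the threshold. In this fit 1.85% of tested genes passed, against 1.12% with all 12 libraries. Replicate 1 had the lowest Gch1 level of the cmGch1 KO libraries, 3.92 cpm against 5.38 to 6.32 cpm in the others.

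Acadm encodes the medium-chain enzyme and had the most counts of the set. In WT its lowest, median and highest levels were 1249, 1313 and 1403 cpm, and in cmGch1 KO they were 989.7, 1127 and 1341 cpm. All cmGch1 KO libraries but replicate 1 lay below every WT library, and the lowest was replicate 2. The means of 1315 ± 63.2 and 1135 ± 120.2 cpm (SD, n = 6 each) gave a log2 fold change of -0.21 (SE 0.08, edgeR p = 0.0135, FDR = 0.248, exact permutation p = 0.0108). Replicates 2 and 3 had a mean of 1021 cpm and the other 4 cmGch1 KO libraries 1192 cpm.

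Acadvl and Acadl encode the very-long-chain enzyme of the inner membrane and the long-chain enzyme of the matrix. Acadvl had lowest, median and highest levels of 601, 677 and 713 cpm in WT, and of 541, 586 and 669 cpm in cmGch1 KO. Acadl had 996, 1113 and 1129 cpm in WT, and 922, 964 and 1078 cpm in cmGch1 KO. In both genes WT replicate 6 was the lowest WT library, and 3 cmGch1 KO libraries (Acadvl) and 4 (Acadl) lay below it. The log2 fold change of Acadvl was -0.17 (SE 0.07, 95% interval -0.32 to -0.02, edgeR p = 0.0308, FDR = 0.349, exact permutation p = 0.0281). That of Acadl was -0.13 (SE 0.06, 95% interval -0.27 to 0.01, edgeR p = 0.0654, FDR = 0.484, exact permutation p = 0.0368).

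Of the enzymes of branched chains, Acadsb had a fitted difference between those of Acadvl and Acadl, and Acad8 a smaller one. Branched-chain and straight-chain enzymes were not compared by a test. Acadsb, whose product oxidises 2-methylbutyryl-CoA from isoleucine, had lowest, median and highest levels of 169, 181 and 196 cpm in WT and of 147, 168 and 174 cpm in cmGch1 KO. Its 2 lowest libraries were cmGch1 KO replicates 2 and 3, with a mean of 151 cpm against 170 cpm in the other 4. The log2 fold change of Acadsb was -0.16 (SE 0.06, edgeR p = 0.0259, FDR = 0.327, exact permutation p = 0.0152). Acad8, which encodes the isobutyryl-CoA dehydrogenase of valine breakdown, ranged from 53.8 to 60.6 cpm in WT and from 50.4 to 61.2 cpm in cmGch1 KO, with a log2 fold change of -0.07 (95% interval -0.21 to 0.06, edgeR p = 0.272, FDR = 0.763, exact permutation p = 0.171). The highest Acad8 level of all 12 libraries was in a cmGch1 KO heart, replicate 1.

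Acad9 is a relative of Acadvl whose product is best known for its part in the assembly of respiratory complex I. It ranged from 51.5 to 58.8 cpm in WT and from 47.4 to 55.9 cpm in cmGch1 KO. The log2 fold change was -0.07 (95% interval -0.21 to 0.06, edgeR p = 0.274, FDR = 0.763, exact permutation p = 0.18), an interval that excludes a difference as large as the central estimate for Acads.

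Both ETF subunits had a lower mean level in cmGch1 KO. Etfa, the α subunit, had lowest, median and highest levels of 623, 667 and 727 cpm in WT and of 526, 564 and 669 cpm in cmGch1 KO. Only replicate 1 of the cmGch1 KO libraries reached the WT range. The log2 fold change of Etfa was -0.23 (SE 0.08, edgeR p = 0.00973, FDR = 0.214, exact permutation p = 0.0216). In Etfa, replicates 2 and 3 were not the low libraries, with a mean of 589 cpm against 566 cpm in the other 4.

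Etfb, the β subunit, was the most variable of the set in WT. It had lowest, median and highest levels of 704, 868 and 1040.3 cpm in WT and of 613, 729 and 906 cpm in cmGch1 KO. WT libraries fell apart in Etfb, with replicates 2, 5 and 6 between 704 and 760 cpm and replicates 1, 3 and 4 between 976 and 1040.3 cpm. The same 3 WT libraries held the highest WT levels of Acads and Etfa. The log2 fold change of Etfb was -0.20 with an SE of 0.12 (95% interval -0.46 to 0.06, edgeR p = 0.124, FDR = 0.601, exact permutation p = 0.171).

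Etfdh, which encodes the oxidoreductase that passes electrons from ETF to ubiquinone, had the smallest WT spread relative to its mean, with an SD of 22.6 around a mean of 675 cpm. Its lowest, median and highest levels were 641, 673 and 709.5 cpm in WT and 546, 589.7 and 664 cpm in cmGch1 KO. All cmGch1 KO libraries but replicate 4 lay below every WT library. The log2 fold change of Etfdh was -0.19 (SE 0.06, edgeR p = 0.00864, FDR = 0.205, exact permutation p = 0.00433). DESeq2's Wald test gave an FDR of 0.0308 for Etfdh, the only one of the 10 that this test called.

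**Figure D3:**
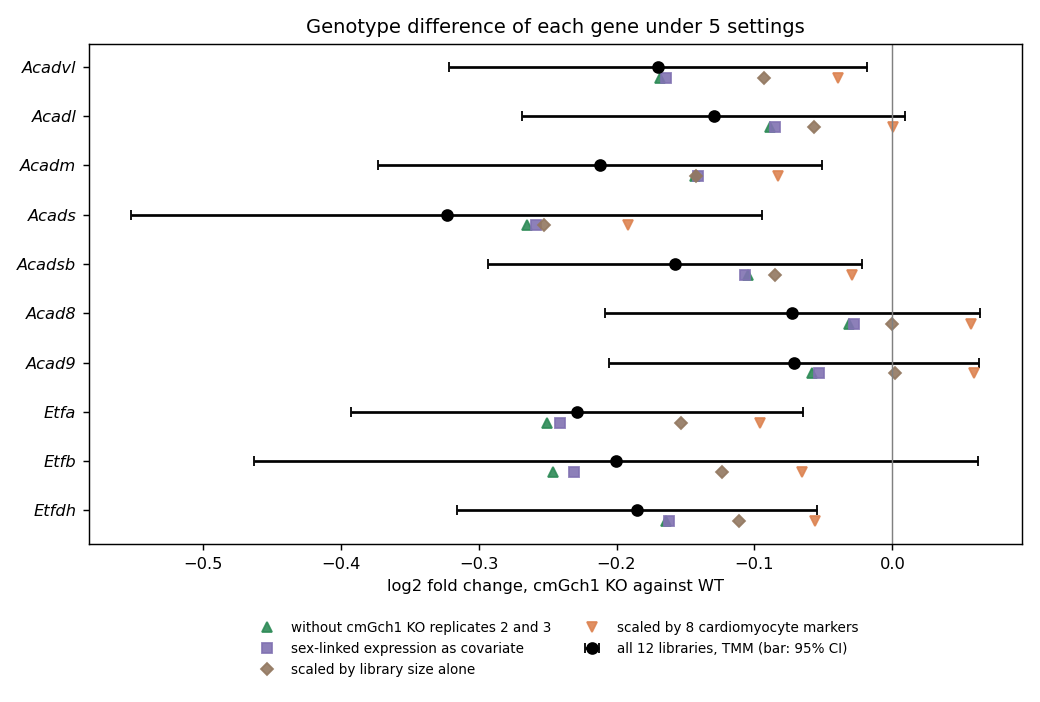
Log2 fold change of each gene, cmGch1 KO against WT, with its 95% interval from the fit over all 12 libraries (black), and the value in 4 other settings (coloured symbols). With cardiomyocyte markers as the scale the values lie between -0.19 and 0.06, to the right of the TMM values for every gene.

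Single hearts differed in how many of the 10 genes were low. In cmGch1 KO replicates 2, 3, 5 and 6, all 10 lay below the WT mean, and 8, 9, 9 and 8 of them lay below every WT library. In replicate 4, 7 lay below the WT mean and 2 below every WT library. In replicate 1, 5 lay below the WT mean and 3 below every WT library, and this heart had the highest level among cmGch1 KO in 6 genes. Among WT hearts, replicate 6 was the lowest in 6 of the 10. The lowest of all 12 libraries was cmGch1 KO replicate 2 in 4 genes, replicate 5 in 3, replicate 3 in 2 and replicate 6 in 1. All these counts rest on the TMM scaling. The share of all tested genes below every WT library was not computed for single hearts, so the counts do not set the 10 genes apart from other genes.

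Within genotype, the levels of the 10 genes mostly moved in the same direction from library to library. Over the 45 pairs of genes, the median Pearson r of centred log2 cpm was 0.402 and 37 were above 0, over 12 libraries that each pair shares. Acadl was most like the mean of the other 9 genes (r 0.907), followed by Acads (0.864) and Acad8 (0.859). Etfdh (0.210) and Acadsb (-0.252) were the least alike, and Acadsb moved against Etfb (-0.733) and Etfa (-0.664). Among 6 pairs examined for their function, Etfa and Etfb, which build 1 dimer, had the highest r, 0.919 (permutation p = 5e-05, adjusted over 6 p = 0.0003), with Spearman's rho 0.923 (permutation p = 8e-05, adjusted p = 0.00048) and an r of 0.912 without the 2 libraries farthest from the median. Acadm and Acadl had r 0.684 (permutation p = 0.0106, adjusted p = 0.0319) and rho 0.713 (permutation p = 0.0113, adjusted p = 0.0338), which became 0.468 without the 2 farthest libraries. Acads and Acadm had r 0.613 (permutation p = 0.0333, adjusted p = 0.0666) and rho 0.448 (permutation p = 0.147, adjusted p = 0.228), and an r of 0.075 without the 2 farthest libraries. The farthest libraries were judged by the first-named gene of each pair alone. Leaving them out also narrows the range of that gene, so a lower r does not show what a relation rests on. For Acadl with Acadvl r was 0.492 and rho 0.441, for Acad9 with Acadvl 0.226 and 0.154, and for Etfdh with Etfa -0.295 and -0.252 (permutation p = 0.103, 0.474 and 0.357 for r and 0.152, 0.634 and 0.432 for rho, adjusted p = 0.155, 0.474 and 0.429 for r). No permutation test was run within 1 genotype, and the gap between the WT libraries in Etfb is part of the first of these relations.

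Ratios between partners, which do not depend on how a library is scaled, were next compared. The ratio of Etfa to Etfb per length was 0.50 ± 0.0524 in WT and 0.486 ± 0.0348 in cmGch1 KO (SD, n = 6 each), a log2 difference of -0.04 (SE 0.07, exact permutation p = 0.619, adjusted over 6 ratios p = 0.656). Etfdh to Etfa was 0.247 ± 0.0222 and 0.255 ± 0.0336. From chain length to chain length, Acadl to Acadvl was 2.18 ± 0.0655 and 2.25 ± 0.210, Acadm to Acadl 0.623 ± 0.0383 and 0.586 ± 0.0332, and Acads to Acadm 0.363 ± 0.0453 and 0.336 ± 0.0293. Acad9 to Acadvl was 0.0265 ± 0.0018 and 0.0284 ± 0.00274. The groups overlapped in all 6 ratios, and the lowest exact permutation p was 0.115, for Acadm to Acadl, at a log2 difference of -0.09 (SE 0.05, adjusted p = 0.489). These p-values do not show that the ratios were alike, since a log2 difference of the size found for single genes would lie within a few SEs.

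The share of each straight-chain enzyme in the summed level per kb of Acadvl, Acadl, Acadm and Acads was compared as well, a test chosen after the values of the genes had been seen. Acadl held 43.3 ± 0.607% in WT (SD, n = 6; 42.3% to 44.1%) and 44.8 ± 0.697% in cmGch1 KO (n = 6; 44.0% to 45.8%), so the ranges met only at their edge. The rise of 1.48 percentage points had an exact permutation p of 0.00433 (two-sided, adjusted over 4 shares p = 0.0173), and was 1.44 points without cmGch1 KO replicates 2 and 3 (exact permutation, adjusted p = 0.0381). Leaving out each of the 12 libraries in turn gave rises of 1.27 to 1.63 points, with adjusted p between 0.0173 and 0.0346. Acads went from 9.75 ± 0.860% to 8.81 ± 0.816% (exact permutation p = 0.0823, adjusted p = 0.165), and without cmGch1 KO replicate 1 the difference was -1.23 points (adjusted p = 0.0346). Acadm (27.0 ± 1.37% and 26.3 ± 1.42%) and Acadvl (19.9 ± 0.678% and 20.1 ± 1.82%) had exact permutation p = 0.379 and p = 0.844. The level of Acadl itself was not higher in cmGch1 KO.

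**Figure D4:**
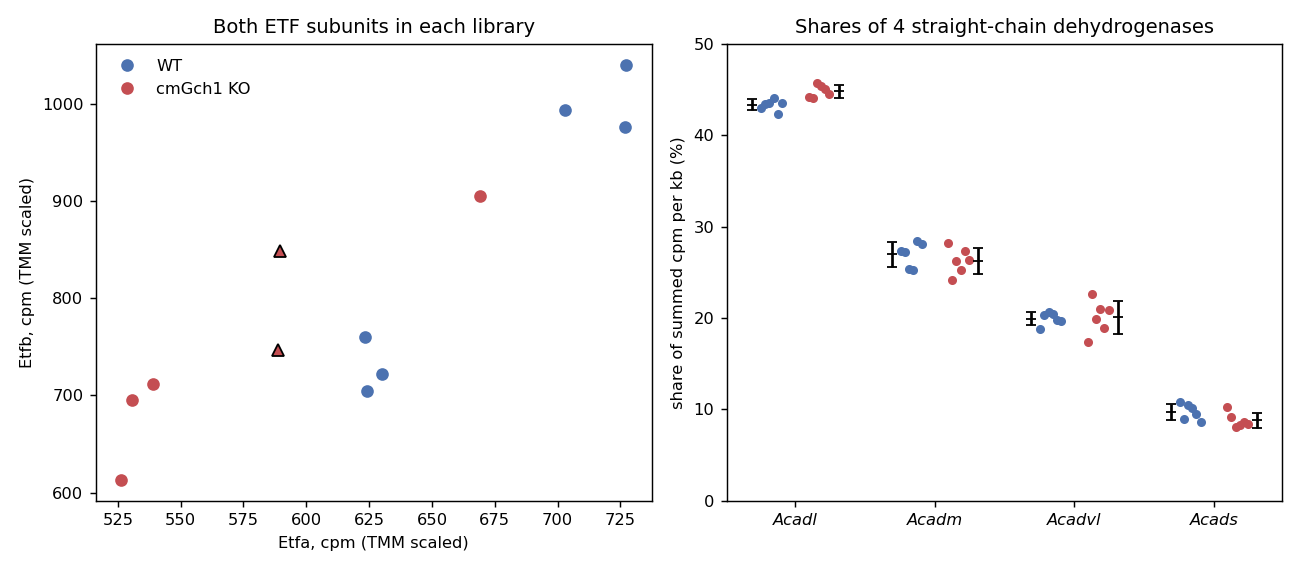
Left, Etfb against Etfa in cpm for each library, on axes that do not start at 0, with triangles for cmGch1 KO replicates 2 and 3; both subunits are high or low in the same hearts of a genotype. Right, share of 4 straight-chain dehydrogenases in their summed cpm per kb in percent, with mean and SD (WT blue, cmGch1 KO red); Acadl is at 43.3% in WT and 44.8% in cmGch1 KO.

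The 5 genes outside the set whose levels followed the mean of the 10 most closely over the 12 libraries, centred within genotype, were Pcnx4 (r 0.969), Dctn6 (0.960), Acaa2 (0.952), Mterf2 (0.947) and Osgepl1 (0.944). Acaa2, the thiolase of the last step of beta-oxidation in mitochondria, had a log2 fold change of -0.22 (SE 0.09, FDR = 0.303 by edgeR). For the other 4 the log2 fold change ranged from -0.24 (Mterf2, FDR = 0.483 by edgeR) to -0.04 (Pcnx4, FDR = 0.960).

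Around the 10 genes, 72 further genes of the same routes were tested. Of these, 66 had a lower fitted level in cmGch1 KO, with a median log2 fold change of -0.15, against 53.3% of all tested genes. At an unadjusted p under 0.05 by edgeR, 20 were lower and none was higher, against 4.51% and 7.01% of all tested genes. An FDR of 0.05 was passed by 1 of the 72, against 1.12% of all tested genes. These shares also stand beside the counts of the single lists below. Without cmGch1 KO replicates 2 and 3 the numbers were 64 lower fitted, 11 at an unadjusted p under 0.05 and none past the FDR by edgeR. In that fit 2.79% of all tested genes were lower at that p and 0.306% passed the FDR. With cardiomyocyte markers as the scale, 44 were lower and 28 higher, and the median was -0.02 against 0.12 for all tested genes.

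Genes upstream of the dehydrogenases bring acyl-CoA into the matrix. Of 5 tested (Acsl1, Cpt1a, Cpt1b, Slc25a20 and Cpt2), 2 were lower at an unadjusted p under 0.05, with a median of -0.19. Cpt2, which reforms acyl-CoA inside the inner membrane, went from 197 ± 8.39 to 173 ± 13.1 cpm (log2 fold change -0.19, FDR = 0.211 by edgeR). Slc25a20, the carnitine-acylcarnitine translocase, had a log2 fold change of -0.22 (FDR = 0.428 by edgeR), and Acsl1, which activates long-chain fatty acids, -0.15 (FDR = 0.582).

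Downstream, all 10 tested genes of the later steps of beta-oxidation had a lower fitted level, 6 of them at an unadjusted p under 0.05, with a median of -0.24 that was -0.16 without cmGch1 KO replicates 2 and 3 (2 genes at that p). Hadh, the 3-hydroxyacyl-CoA dehydrogenase of shorter chains, went from 685 ± 64.5 to 538 ± 97.8 cpm (log2 fold change -0.35, FDR = 0.185 by edgeR). Acat1, a thiolase that also acts on isoleucine and ketone bodies, had -0.27 (FDR = 0.191 by edgeR), and Decr1, a reductase for unsaturated chains, -0.26 (FDR = 0.218 by edgeR).

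The substrates of Acadsb and Acad8 come from branched-chain amino acids, and the genes that make or use these intermediates included the only call of the related lists. Bckdhb, the E1 β subunit of the branched-chain ketoacid dehydrogenase, went from 56.0 ± 3.13 to 40.7 ± 4.57 cpm (SD, n = 6 each) with no overlap of the groups. Its log2 fold change was -0.46 (SE 0.08, FDR = 0.0086 by edgeR), and without cmGch1 KO replicates 2 and 3 it was also -0.46 with an FDR of 0.0573. With sex-linked expression as a covariate the value for Bckdhb was -0.46 (FDR = 0.0433), and with cardiomyocyte markers as the scale -0.33 (FDR = 0.0338 by edgeR). Bckdha, the partner E1 α subunit, had -0.39 (FDR = 0.0795 by edgeR), and Mccc2, a subunit of the leucine-pathway carboxylase, -0.25 with no overlap (FDR = 0.0744 by edgeR). In all, 10 of 10 tested genes of this list were lower fitted and 5 passed an unadjusted p of 0.05, with a median of -0.19.

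Other dehydrogenases that feed ETF were mixed. Of the 5 further members of the acyl-CoA dehydrogenase family, 3 had a lower and 2 a higher fitted level, and 2 of the lower ones had an unadjusted p under 0.05. These were Gcdh, for glutaryl-CoA from lysine (-0.20, FDR = 0.152 by edgeR), and Ivd, for isovaleryl-CoA from leucine (-0.20, FDR = 0.193 by edgeR), while Acad12 had 0.09 (FDR = 0.653). Among the other partners of ETF, Etfrf1, a regulator that acts on the flavin of ETF, had -0.25 (FDR = 0.540 by edgeR) and Etfbkmt, which methylates the β subunit, -0.35 (FDR = 0.548). Dmgdh lay below the filter.

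The cofactor and the acceptor of the electrons were looked at last. For FAD supply, 4 genes were tested and none passed an unadjusted p of 0.05, with a median of -0.02. The largest fitted difference there was 0.24 for the riboflavin transporter Slc52a2 (FDR = 0.548 by edgeR), and Slc25a32 and Rfk had -0.07 and -0.04. In ubiquinone synthesis, 12 of 13 genes were lower fitted and 3 passed an unadjusted p of 0.05, led by the methyltransferase Coq5 (-0.22, FDR = 0.0774 by edgeR), whose groups did not overlap, with Coq8a at -0.17 and Coq9 at -0.29. The 8 tested other electron donors to ubiquinone were all lower fitted, with a median of -0.14 and none at an unadjusted p under 0.05 (Sqor -0.17, Sdhc -0.17, Prodh -0.15). The 5 tested partners of Acad9 in complex I assembly were likewise lower fitted, with a median of -0.09 and none at that p (Timmdc1 -0.20, Ecsit -0.17, Tmem126b -0.09). Among 7 nuclear regulators, all lower fitted with a median of -0.13, 1 passed an unadjusted p of 0.05. This was Rxra at -0.17 (FDR = 0.433 by edgeR), and Ppara and Ppargc1a had -0.26 each (FDR = 0.656 and 0.606).

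**Figure D5:**
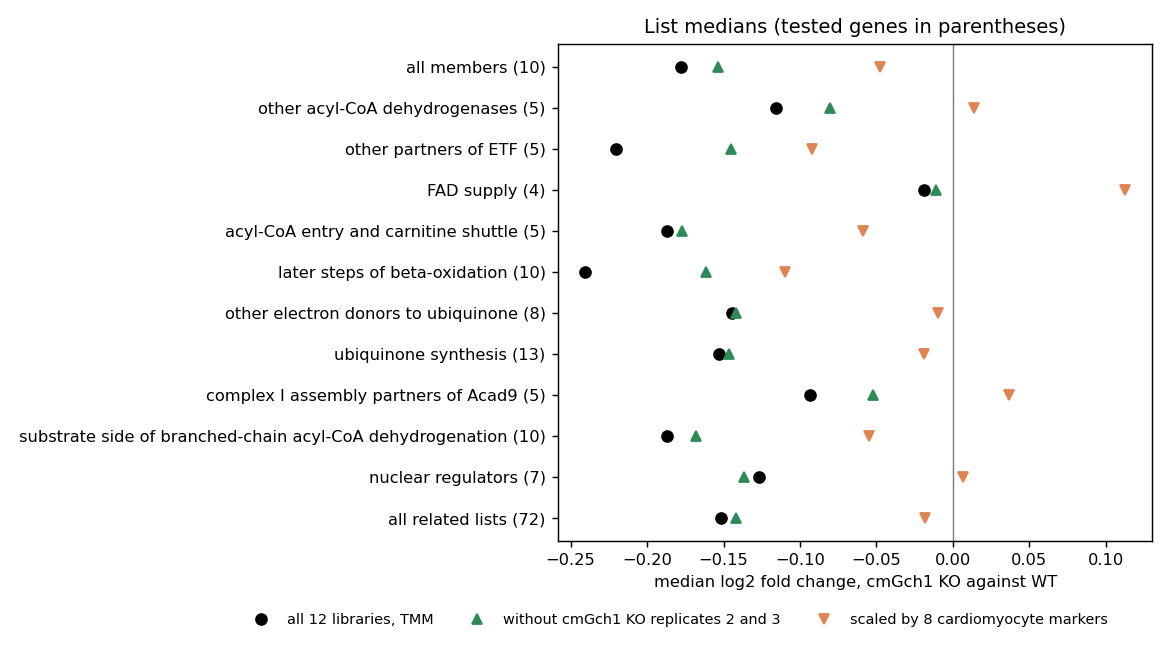
Median log2 fold change, cmGch1 KO against WT, of the 10 genes and of the lists around them, with the number of tested genes in parentheses. Black points are from all 12 libraries with TMM scaling, green triangles leave out cmGch1 KO replicates 2 and 3, and orange triangles are scaled by cardiomyocyte markers, where the 10 genes have a median of -0.05 and all tested genes 0.12.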

How the data were processed

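RNA of 12 left ventricles, 6 WT and 6 cmGch1 KO, was analysed, with groups and replicate numbers from the sample labels. The authors deposited raw counts per Ensembl gene, made from stranded (dUTP) paired-end reads with HISAT2, Picard and featureCounts on GRCm38. The authors also deposited normalized values on a log2 scale, whose tool is not given in the sources used here. Of 26921 genes, 26545 were matched to GENCODE M21.

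Counts were fitted over all genes with edgeR 4.0.16 (R 4.3.3): TMM, cpm over 3 in at least 6 libraries, quasi-likelihood test on genotype, Benjamini-Hochberg adjustment over 11225 tested genes, and an FDR threshold of 0.05. This script was tested on simulated data. Levels are cpm scaled by TMM factors, and correlations used log2 cpm with a prior count of 2. Single levels, ratios and shares were compared by exact permutation of the 12 libraries (924 splits, two-sided, smallest p 0.00216; scipy 1.17.1). The p-values of the levels were not adjusted. A count of 3, the limit that 0 counts allow, equals 0.0791 to 0.151 cpm, covering counting error only. The chi-square per degree of freedom between libraries of 1 genotype was 12.5 to 78.9 over 30 pairs, so no library was a copy of another of its genotype. Pairs across genotypes were not examined in this way.

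The members, lists, ratios, motifs and alternatives were chosen with earlier results of these data known. The shares of the straight-chain enzymes were added after the values were seen. Named genes are the 10 members, Gch1, Xist with 4 Y-linked genes, up to 3 genes of each related list with the smallest p, and the 5 genes most correlated with the members' mean. Genes named outside this rule carry no value, or are Acta2, Tagln and Myh11, markers chosen after their values were seen, and Dvl2 and Gm45233, chosen for their overlap. Alternatives were DESeq2 1.42.0 (size factors, Wald test), total counts, nuclear genes only, cardiomyocyte markers, other filters, a replicate block, sex-linked expression, 1 surrogate variable (sva 3.50.0), the deposited log2 values in limma 3.58.1, and libraries left out. One gene of these lists is not reported here.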

Additional observations from a re-analysis of the deposited data

How the results depend on the processing

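Over 25 other settings the log2 fold changes of Acadvl, Acadm, Acads, Acadsb, Etfa, Etfb and Etfdh kept their direction. That of Acad9 became 0.00156 with library size alone, and with cardiomyocyte markers as the scale Acad9, Acad8 and Acadl came to 0.0589, 0.0569 and 0.000599. The number of the 10 genes with an FDR under 0.05, 0 by edgeR, was 1 with DESeq2's Wald test (Etfdh, against 3.32% of all tested genes). It was 4 with 1 surrogate variable (Acads, Etfa, Etfb and Etfdh, FDR 0.0148, 0.00189, 0.0439 and 0.0403, against 5.67% of all tested genes). With a library left out it was 0 to 1, against 0.643% to 1.85% of all tested genes. The surrogate variable also raised the calls over all genes from 126 to 331 lower and 305 higher. This variable was estimated from the same data and then taken as known, so its FDRs leave out the error of that estimate. The number lower at an unadjusted p under 0.05 was 6 (4.51% of all tested genes), against 1 with library size alone (2.11%) and 0 with cardiomyocyte markers (1.04%). It was 3 with sex-linked expression as a covariate (2.86%), 2 without cmGch1 KO replicates 2 and 3 (2.79%), and 4 to 7 with a library left out (3.51% to 7.57%). The median log2 fold change was -0.0477 with cardiomyocyte markers and otherwise between -0.20 and -0.10. The ratio of Etfdh to Etfa had log2 differences of -0.0073 (without cmGch1 KO replicate 4) to 0.0961 with a library left out, and the share of Acads of -1.23 to -0.73 points. The share of Acadvl differed by -0.34 to 0.71 points with a library left out and by -0.42 points without cmGch1 KO replicates 2 and 3. A change of scale shifts all genes of a library alike. The median of all tested genes was -0.01 with TMM, 0.07 with library size alone and 0.12 with cardiomyocyte markers. The cause of the shifts in the other settings was not tested.

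Whether the replicate numbers pair the libraries was not settled. Same-numbered libraries had correlations of their deviations from -0.13 to 0.68. These were 0.68, 0.40 and 0.51 for replicates 1, 5 and 6, and below 0 for replicates 2, 3 and 4. Of 12 libraries, 5 correlated best with their own number. With the replicate number as a block, 6 of the 10 genes had a lower level at p under 0.05 before adjustment. Over all tested genes 7.5% were lower at that p with the block and 4.51% without it. Of the 10, 0 passed an FDR of 0.05 by edgeR (DESeq2 without the block called 1), and their median was -0.18. Calls over all genes were 76 lower and 112 higher with the block, against 50 and 76.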
